A study of Mus with 2 samples.

Results

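Goblet cells of the mouse distal ileum were described here through the 4537 genes of the deposited goblet sheet, which compares 2 groups of goblet cells, and the 282 genes listed for cluster 4 in the deposited marker table. All 282 cluster 4 genes were also in the goblet sheet, so the 4537 genes are all members, of 8995 genes found anywhere in the tables of the series. The samples were sorted epithelial cells, profiled with inDrops, in which each cell's RNA is barcoded inside a droplet. One sample came from Nav1.8Cre+/-DTA+/- mice, in which diphtheria toxin A is expressed from the Nav1.8 Cre driver and nociceptors, the sensory neurons for noxious stimuli, are removed. The control sample came from Nav1.8Cre-/-DTA+/- littermates, which carry the toxin allele without Cre, so that allele is common to both genotypes. Both were at baseline with no other treatment named, and each sample pooled 3 mice, which the deposited library sheet gives as males of 8 weeks. The driver acts in all cells with a history of Nav1.8 expression, and the labels give no measure of how many neurons were lost.

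Goblet cells are secretory cells that fill the gut surface with mucus. They make the gel-forming mucin Muc2 in the endoplasmic reticulum, join its subunits by disulphide bonds, add long O-linked sugar chains in the Golgi, and store the product in granules until it is released. Nociceptors are known to signal to goblet cells through the neuropeptide CGRP, whose receptor contains Ramp1, and the genotype comparison asks how goblet cell genes differ when these neurons are missing.

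The deposited sheets name their groups only as first and second. They are called group 1 and group 2 here, no genotype is assigned to either, and no difference below carries a direction of nociceptor loss. Each genotype had 1 pooled sample, so there was no replicate, no test and no error between animals. A fold change is the authors' log2 ratio of mean expression, group 1 over group 2, with an added constant that no source used here states and that compresses weakly detected genes. A detection share is the percentage of cells in a group in which the gene was found. The number of cells and molecules behind the shares is not stated in the sources used here, and no interval was computed. A gene is called past the fold when its log2 fold change was at least 0.25 in size, which describes these libraries and not the genotypes.

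The cells of cluster 4 carried the goblet programme. The 6 marker genes given for goblet cells held its first 6 places by fold over other cells. They were given in this same order and may have been taken from this ranking, so their lead is no independent check. In the authors' deposited table, Tff3, the trefoil peptide that is secreted with mucus, was 5.68 higher on the log2 scale in the cluster and was detected in 100% of its cells and 72.7% of other cells. Zg16, a lectin of mucus that binds bacterial cell walls, was 5.39 higher in the authors' deposited table, and was found in 89.8% and 60.4%. Spink4, a secreted protein with a Kazal-type protease inhibitor domain, was 4.83 higher with 99.2% and 44.1% in the authors' deposited table. These 3 transcripts were thus found in many cells outside the cluster as well, at unknown depth.

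The other leading genes were found less often elsewhere. The authors' deposited table gave Fcgbp, a large mucus protein bound to Muc2, 4.72, with detection in 95.9% of the cluster and 26.4% of other cells. Agr2, the protein disulphide isomerase needed for Muc2 processing, stood at 4.72 with 98.0% and 27.7%, and Muc2 itself at 4.25 with 96.7% and 23.2%, in the authors' deposited table. Clca1, a secreted metalloprotease that cleaves Muc2, followed at 3.86 with 85.9% and 15.3% in the authors' deposited table. The shares outside the cluster are of the same order for Muc2, Agr2 and Fcgbp, and free RNA was not separated from expression in those cells.

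Further down the list, the authors' deposited table held more selective genes. Klk1, a kallikrein, was detected in 82.7% of the cluster and 3.7% of other cells, and the chemokine gene Ccl6 in 67.3% and 1.0%. The long noncoding RNA gene E230016K23Rik (chromosome 11, 83582061 to 83623693, GRCm38.p6, the assembly behind mm10) was at 70.4% and 1.4% in the authors' deposited table. It spans Ccl6 (chromosome 11, 83587886 to 83593087), and reads of these overlapping genes may not be separable. Lgals2, a galectin, was the last of the 15 strongest genes, with 100% and 82.4% in the authors' deposited table. S100a6, a calcium-binding protein, was at 84.9% and 19.6%, and Guca2a, the precursor of guanylin, at 94.5% and 61.8%, in the authors' deposited table. Of the 282 genes, 62 were detected in under 5% of the other cells and 25 in over 50%. Of the 282, 171 were listed for no other cluster, and 74 were also listed for cluster 2, whose rows include the crypt gene Olfm4 and many ribosomal protein genes.

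**Figure D1:**
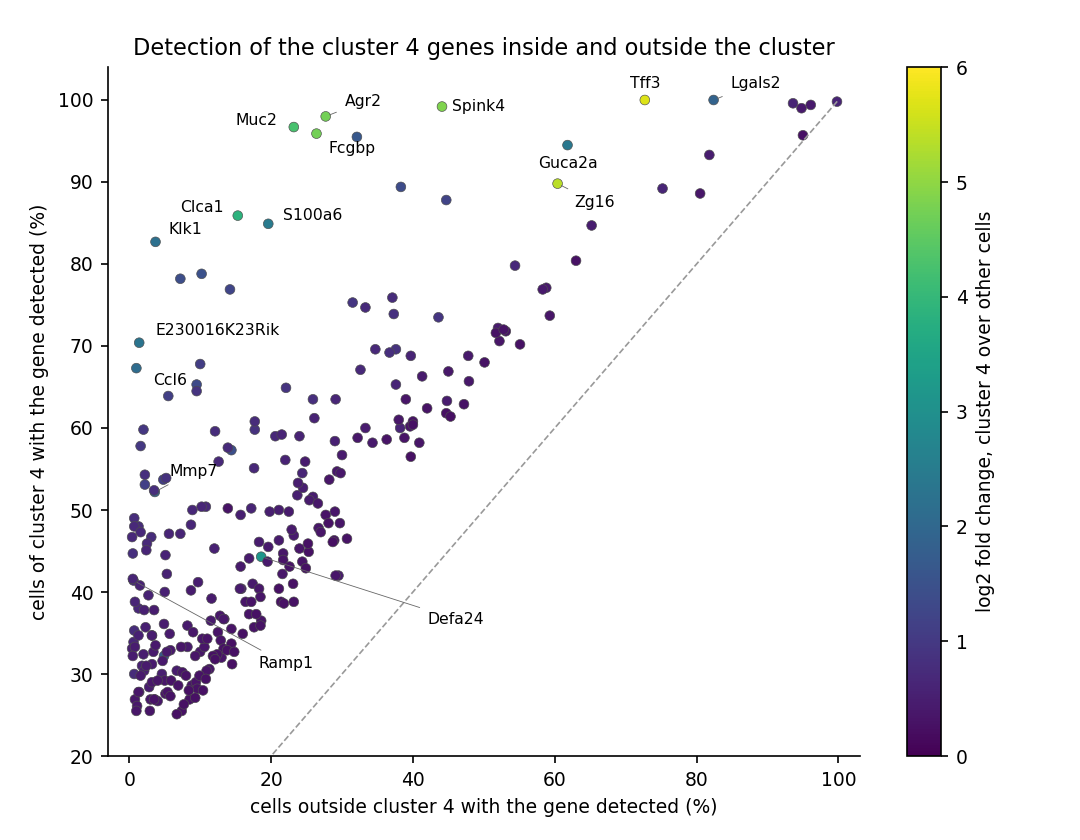
Share of cells in which each of the 282 cluster 4 genes was detected, outside the cluster (horizontal axis, percent) and inside it (vertical axis, percent), coloured by the log2 fold change over other cells; the dashed line marks equal shares. Muc2, Agr2 and Fcgbp sit at the upper left with 96.7%, 98.0% and 95.9% inside, whereas Tff3 and Zg16 were also found in 72.7% and 60.4% of other cells.

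The label was set beside markers of other cell types. All 12 goblet markers were in cluster 4, and none of the 12 enterocyte, 6 stem cell, 6 proliferation or 7 tuft cell markers was. The 12 include the 6 given ones, and the lists were chosen with earlier results known, so this is no independent check. Paneth cell genes were an exception, with 4 of 11 in the cluster: the protease Mmp7, the defensin Defa24, the lectin Itln1 and the stress protein Nupr1. Mmp7 was detected in 52.2% of the cluster and 3.6% of other cells, and Defa24, which has near-identical copies, in 44.3% and 18.6%, in the authors' deposited table. The hormone gene Sct was at 50.2% and 13.9% in the authors' deposited table. None of the 7 immune and none of the 8 stromal, muscle and neuronal markers was listed in the goblet sheet. The cells of cluster 4 and of the goblet sheet were not shown to be the same. For 206 of the 282 genes the share in the cluster lay below the shares of both groups of the sheet, and for 6 it lay above both, which a pool of exactly those 2 groups could not give.

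Between the groups, the secreted mucus products among the leading genes lay within the fold or, for Clca1, were higher in group 1, while the folding enzyme Agr2 was lower past it. Muc2 (chromosome 7, 141690340 to 141754691) was found in 97.4% of group 1 cells and 98.0% of group 2 cells, at -0.02 in the authors' deposited table. Spink4 (chromosome 4, 40920056 to 40931395) was found in 99.0% and 99.3%, at -0.01 in the authors' deposited table. Fcgbp (chromosome 7, 28071236 to 28120864) was found in 95.9% and 97.3%, at 0.08 in the authors' deposited table. These 3 genes lay within the fold, and the signs of Muc2 and Spink4 turned positive when the zero point was moved to the median of all goblet genes (-0.04).

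Tff3 (chromosome 17, 31125306 to 31129611) was detected in 100% and 99.7% of cells, at 0.17 in the authors' deposited table. Zg16 (chromosome 7, 127050156 to 127052675) was detected in 94.4% and 92.5%, at 0.23 in the authors' deposited table. Both were higher in group 1 without reaching the fold. Clca1 (chromosome 3, 145004537 to 145032776) was detected in 92.3% and 85.4%, and at 0.43 in the authors' deposited table it was the highest of the 282 genes. Agr2 (chromosome 12, 35992925 to 36004081) was detected in 98.5% and 98.0%, at -0.39 in the authors' deposited table. Detection of Agr2 was near its ceiling in both groups and could not show a difference of this kind. Of the 6 given markers, Agr2 was past the fold and the other 5 were not.

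Over all 282 cluster 4 genes, 45 were lower and 2 were higher in group 1 past the fold, and 235 lay between. In the whole goblet sheet 2.76% of genes were lower and 0.617% higher by the same rule, against 16.0% and 0.709% of the cluster 4 genes. The median log2 fold change was -0.13 for the cluster 4 genes and -0.04 for all genes of the sheet. Cluster 4 genes were also detected more often, in a median of 48.7% and 55.8% of cells (groups 1 and 2) against 16.9% and 18.7% for all genes, and fold changes widened with detection. Among genes detected in at least 50% of a group, 22.4% of the 174 cluster 4 genes and 14.5% of the 358 other genes were lower past the fold, with medians of -0.16 and -0.10. Those shares are closer to each other than 16.0% is to 2.76%. The count depended on the zero point. Set against the median (-0.10) of the 92 genes outside the cluster that were found in 70% or more of the cells of each group, 10 cluster 4 genes were lower and 6 higher, where 0.551% and 1.76% of all genes of the sheet were.

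Detection gave a like picture. Detection was lower in group 1 by at least 10 percentage points for 44 of the 282 genes and higher for 1, where 5.42% and 0.397% of all genes of the sheet were. The 1 gene was Tm4sf4, a tetraspan membrane protein gene, detected in 39.0% of group 1 cells against 27.9% by the authors' deposited table. Genes detected more often have more room for such a gap. Among genes detected in at least 50% of a group, 33 of 174 cluster 4 genes and 53 of 358 other genes were lower by this measure. By the same measure 0 and 6 were higher. Depth per cell is unknown and was not separated from these shares.

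**Figure D2:**
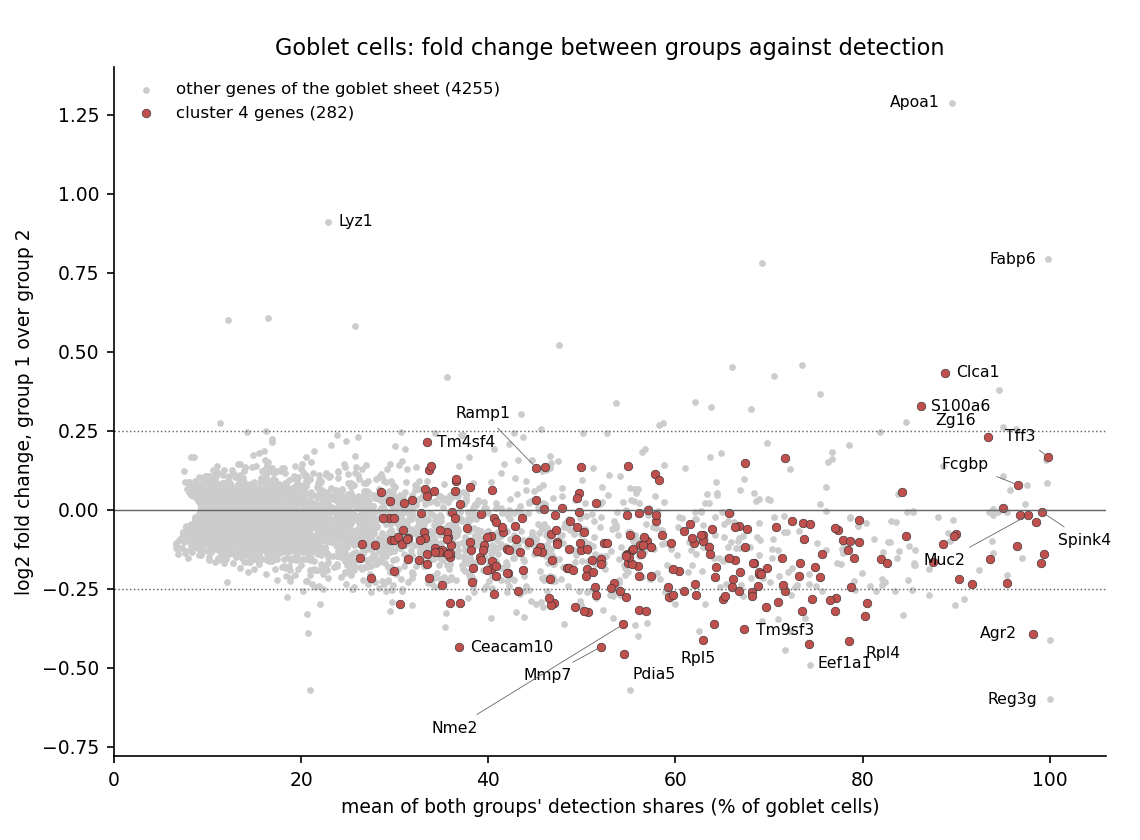
Log2 fold change between the groups of goblet cells (vertical axis, group 1 over group 2) against the mean of both groups' detection shares (horizontal axis, percent) for the 282 cluster 4 genes (red) and the 4255 other genes of the sheet (grey); dotted lines mark 0.25 in either direction. Most red points lie under 0, as do 72.7% of all genes of the sheet. Clca1 (0.43) and S100a6 (0.33) are above the upper line and Agr2 (-0.39) is under the lower one.

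The 10 highest cluster 4 genes began with Clca1 and S100a6, which the authors' deposited table placed at 0.33 with detection in 86.7% and 85.7% of cells. Zg16, Tm4sf4 (0.21), Tff3 and the long noncoding RNA gene AW112010 (0.16) came next in the authors' deposited table. The remaining 4 were Dynll1, a dynein light chain (0.15), Camk2n1 (0.14), Shroom3 (0.14) and Defa24 (0.14), again from the authors' deposited table. The leading 6 of these 10 were the 6 genes that were past the fold with the zero point at widely detected genes.

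The lowest was Pdia5, a protein disulphide isomerase of the endoplasmic reticulum, found in 45.1% of group 1 and 63.9% of group 2, and the authors' deposited table put it at -0.46. Ceacam10 (-0.44, 30.3% and 43.5%) and the Paneth cell protease Mmp7 (-0.43, 44.6% and 59.5%) followed in the authors' deposited table. The elongation factor Eef1a1 (-0.43) and the ribosomal protein genes Rpl4 (-0.42) and Rpl5 (-0.41) were next in the authors' deposited table. Agr2 came after them, and then the membrane traffic protein Tm9sf3 (-0.38, 61.5% and 73.1%), the noncoding RNA gene 2310002F09Rik (-0.36) and the nucleoside diphosphate kinase Nme2 (-0.36) in the authors' deposited table. Nme2 has a close copy, Nme1, beside it, and their reads may not be fully separable. These 10 remained past the fold with both other zero points. Apart from Agr2, whose detection was near its ceiling, these genes were detected in fewer cells of group 1.

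The 45 lower genes were of several kinds. Of them, 26 were also listed for cluster 2, 16 were listed for cluster 4 alone, and 11 were genes of the ribosome or of elongation. Of the 74 genes shared with cluster 2, 35.1% were lower past the fold (median -0.19), and of the 171 in no other cluster 9.36% were (median -0.12). Of the 27 genes for ribosomal proteins, the ribosome-bound Rack1 and elongation factors in cluster 4, 11 were lower past the fold and none higher, with a median of -0.16. The other 255 cluster 4 genes had 34 lower and 2 higher, with a median of -0.13. How strongly a gene marked the cluster did not order its difference, with a Spearman rank correlation of -0.02 over the 282 genes. The 7 genes with the highest fold over other cells had a median of 0.08, the next 8 a median of -0.13, and those ranked 142 to 282 a median of -0.13. The cut at 7 ends with Clca1, the highest of the 282 genes between the groups, so nothing is read from the first of these medians.

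Closest to 0 among cluster 4 genes found in 50% or more of the cells of each group were Sct, Guca2a, Spink4, the endoplasmic reticulum selenoprotein gene Selenok, the pseudogene Gm10073, the annexin Anxa13, Muc2, the tryptophanyl-tRNA synthetase Wars, the actin-binding peptide Tmsb4x and Mien1. Their values ran from -0.02 to 0.02 in the authors' deposited table. Guca2a was found in 94.9% of group 1 cells and 95.2% of group 2 cells, and Sct in 55.9% and 58.2%, in the authors' deposited table.

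Grouped by role, secreted products spread to both sides of 0, while genes for protein folding, translocation and transport had few members past the fold, each lower in group 1. Their medians lay from -0.13 to -0.11 and came to between -0.03 and -0.01 with the zero point at widely detected genes. Counts in the lists stand against 2.76% lower and 0.617% higher over the whole sheet. A list with 1 lower gene thus stands within 1 gene of the share over all genes, and nothing is read from it. Of genes outside cluster 4 detected in at least 25% of a group, 5.72% were lower and 1.57% higher. At 50% these shares were 14.5% and 4.75%. The folding, translocation and transport lists had group 1 median detection of 46.2%, 35.4% and 32.8%, against 16.9% for all genes. Their counts were not matched for this. Pairs of percentages give group 1 and then group 2. Of 25 genes for mucus gel and other secreted products, 17 were listed, 3 past the fold on the higher side and 1 on the lower, with a median of -0.02. The higher genes were Clca1, Ang4 (0.60, 17.9% and 6.5% of cells) and Reg4 (0.27, 11.8% and 10.9%) in the authors' deposited table. Ang4 and Reg4 were weakly detected. The rule by which a gene is listed is not stated, and Ang4 may be listed only through group 1. Nothing is read from its count as a higher gene. Other weakly detected members may likewise be listed only through the group in which they were found more often. The lower gene was Ccl6 (-0.26, 68.7% and 67.7%) in the authors' deposited table. Hgfac, a secreted serine protease, was at -0.21 and Klk1 at -0.08 in the authors' deposited table. Among 7 membrane-bound mucin genes 3 were listed, all above 0, and the authors' deposited table placed Muc3 at 0.30 with detection in 48.7% and 38.4%, Muc13 at 0.06 and Muc3a at 0.03. Muc3 and Muc3a are related genes near each other on chromosome 5, and their reads may not be fully separable.

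Folding enzymes of the endoplasmic reticulum had 33 listed genes of 41, of which 2 were lower past the fold and none higher. Their median was -0.12, and 31 members were under 0, as were 72.7% of all genes of the sheet. Among the 31, Ero1l (7.2% and 10.2%) and Tmx1 (8.7% and 10.5%) may be listed only through group 2. Nothing is read from their signs. The 2 lower genes were Pdia5 and Agr2. Erp29, a folding helper, was at -0.25 (just within the fold), and the calcium-binding chaperone Calr at -0.22, found in 91.8% and 88.8% of cells by the authors' deposited table. The chaperone Hspa5, also called BiP, was the highest of the list at 0.05 with 86.2% and 82.3% in the authors' deposited table. Hspa5 and Fkbp2 were the members above 0, and both were named after their values were seen.

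Genes that carry new proteins into the endoplasmic reticulum and attach N-linked sugars were all listed (35 of 35), with 4 lower past the fold and none higher. Their median was -0.13, and 33 members were under 0, as were 72.7% of all genes of the sheet. Ost4, under 0 (8.7% and 10.5%), may be listed only through group 2, and Srp54a, above 0 (10.3% and 6.8%), only through group 1. Nothing is read from their signs. The authors' deposited table gave Rpn2 -0.32 and Ddost -0.32, both subunits of the oligosaccharyltransferase, with detection in 45.6% and 54.8% for Rpn2 and 52.8% and 59.5% for Ddost. Sec11c, a signal peptidase subunit, and Ssr2, of the translocon-associated complex, were each at -0.28 in the authors' deposited table. Transport between the endoplasmic reticulum and the Golgi had 44 of 51 genes listed, 5 lower past the fold, none higher, and a median of -0.11. Besides Tm9sf3, the authors' deposited table placed the tether Uso1 at -0.27, the retrieval receptor Kdelr1 at -0.27 and the coat subunit Copz1 at -0.26. The other was Sec13, a coat subunit of vesicles that leave the endoplasmic reticulum, at -0.25 in the authors' deposited table.

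The unfolded protein response, which adjusts folding capacity to load, had 19 of 24 genes listed, 1 lower past the fold, none higher, and a median of -0.11. That gene was Xbp1, a transcription factor of this response in secretory cells, at -0.26, found in 55.9% of group 1 cells and 66.0% of group 2 cells by the authors' deposited table. Serp1 (-0.25), Creb3l1 (-0.19) and Atf4 (-0.19) were short of the fold in the authors' deposited table. Ern2, the goblet cell form of the sensor that acts on Xbp1, was at -0.13 in the authors' deposited table.

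Transcription factors of the goblet lineage had 15 of 20 genes listed, 1 lower past the fold, none higher, and a median of -0.13, with Xbp1 counted again as the member past the fold. Spdef, which drives goblet cell maturation, was at -0.25 (just within the fold), found in 47.7% and 55.1% of cells by the authors' deposited table. Atoh1, which commits cells to the secretory lineage, was at -0.24 with 30.3% and 39.8% in the authors' deposited table. Mxd1 was on the other side at 0.19 with 32.8% and 29.3% in the authors' deposited table. Klf4 (-0.04) and Foxa3 (-0.03), also goblet cell factors, were near 0 in the authors' deposited table.

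Mucin sugar chains were described in 2 lists. Of 42 glycosyltransferase and sulphotransferase genes 24 were listed, none lower and 1 higher past the fold, with a median of -0.07. The higher gene was St3gal4, a sialyltransferase, at 0.32, found in 73.3% and 62.9% of cells by the authors' deposited table. Galnt12, which starts O-linked chains, was at -0.19 with 41.5% and 55.4%, and C1galt1, which extends them, at -0.18 with 19.5% and 32.0%, in the authors' deposited table. The list also holds Fut8, a fucosyltransferase of N-linked and not O-linked chains, at -0.18 with 36.4% and 45.2% in the authors' deposited table. Nucleotide sugar supply had 22 of 27 genes listed, 4 lower past the fold, none higher, and a median of -0.08. The 4 were Tsta3 of GDP-fucose synthesis (-0.30), the transporter Slc35b1 (-0.28), the phosphomannomutase Pmm2 (-0.27) and Cmas, which activates sialic acid (-0.26), in the authors' deposited table. Slc35b1 was placed here by its transporter family, and it is described as an exchanger of ATP and ADP.

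Granule and exocytosis genes had 27 of 37 listed, 1 lower past the fold, none higher, and a median of -0.03. The lower gene was the tetraspanin Tspan13 at -0.31, found in 66.2% and 73.1% of cells by the authors' deposited table. Bace2 (-0.16), Rep15 (-0.16) and Tpd52 (-0.14) were within the fold, and the small GTPases of granule release Rab27a and Rab27b were each at 0.06, in the authors' deposited table. Ion and calcium transport had 17 of 28 listed, 1 lower past the fold, none higher, and a median of -0.06. Slc12a8, a cation-chloride cotransporter family member, was the lower gene at -0.28 with 56.4% and 62.2% in the authors' deposited table. The chloride-loading cotransporter Slc12a2 (-0.17), the cation channel Trpm4 (-0.14) and the sugar transporter Slc50a1 (-0.14) were within the fold in the authors' deposited table.

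Genes of CGRP and other secretagogue signalling had 13 of 27 listed, 1 lower past the fold, none higher, and a median of -0.00299. Ramp1 (chromosome 1, 91179822 to 91225196) was detected in 41.4% of cluster 4 and 0.6% of other cells, and in 49.7% of group 1 and 40.5% of group 2, at 0.13, in the authors' deposited table. Gnas, the stimulatory G protein subunit that acts on adenylate cyclase, was the lower gene at -0.27 with 44.1% and 61.9% in the authors' deposited table. Gna11, a G protein subunit of the phospholipase C pathway, was at 0.17 and the phospholipase Pla2g10 at -0.15 in the authors' deposited table.

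**Figure D3:**
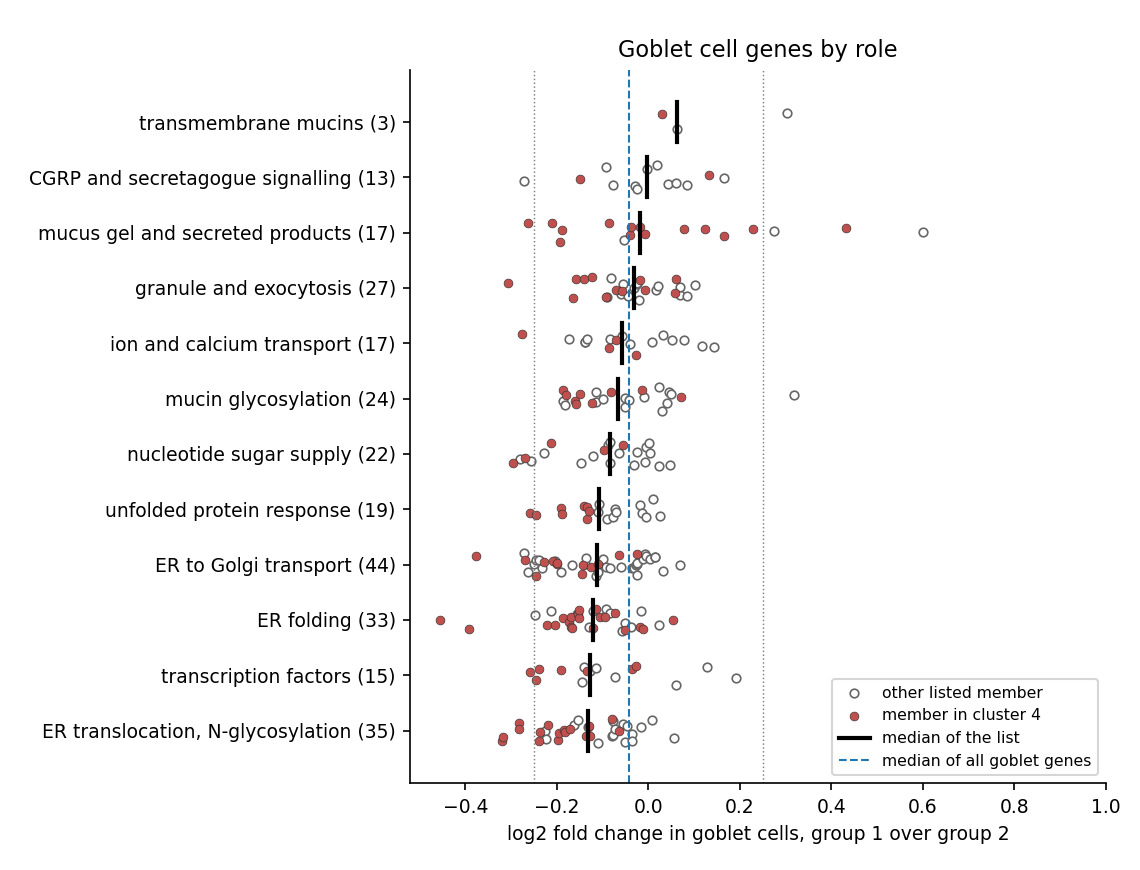
Log2 fold change in goblet cells (horizontal axis, group 1 over group 2) of each listed member of 12 role lists, with the number listed in brackets; red points are cluster 4 genes, black bars list medians, the dashed line the median of all goblet genes and dotted lines 0.25 in either direction. Medians run from -0.13 for endoplasmic reticulum translocation to 0.06 for the 3 transmembrane mucins.

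The lists with medians further under 0 than that of all genes (-0.04) were those of translocation, transcription factors, folding, transport, the unfolded protein response, nucleotide sugars, mucin sugar chains and ion transport. With the zero point at widely detected genes (-0.10), these medians moved to between -0.03 and 0.04, and the medians of nucleotide sugars, mucin sugar chains and ion transport turned above 0.

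The leading genes were set beside their values in the other cell type sheets, which come from the same 2 libraries and are no replicates. Whether the first group is the same genotype in each sheet is not stated. The tuft and enteroendocrine sheets rest on few cells, since their shares move in coarse steps. In group 2 these were 14.3%, 28.6% and 42.9% for tuft cells, and 10%, 12.5% and 15% for enteroendocrine cells. Their values are thus less certain than those of goblet cells. The authors' deposited table listed Agr2 under 0 in all 5 sheets, at -0.28 in enterocytes, -0.41 in stem cells, -0.30 in tuft cells and -0.97 in enteroendocrine cells beside -0.39 in goblet cells. Detection of Agr2 outside goblet cells was lower in group 1 of enterocytes (30.8% and 45.6%), stem cells (34.0% and 52.8%) and tuft cells (27.8% and 57.1%) in the authors' deposited table. In enteroendocrine cells it was 47.1% and 45.0% in the authors' deposited table. Spink4 was at -0.29 in enterocytes and -0.43 in stem cells beside -0.01 in goblet cells, and Tff3 at -0.19 and -0.35 beside 0.17, in the authors' deposited table. Zg16 was at -0.13 and -0.16 beside 0.23 in the authors' deposited table. In enteroendocrine and tuft cells Spink4 was at -0.16 and -0.53, Tff3 at 0.57 and -0.26, and Zg16 at 0.06 and 0.05, in the authors' deposited table. Over the 5 sheets the goblet value was thus the highest for Spink4 and Zg16, while Tff3 was highest in enteroendocrine cells. Muc2 and Fcgbp were highest in tuft cells, at 0.22 and 0.10 beside -0.02 and 0.08 in goblet cells, in the authors' deposited table. No test of these differences was possible with 1 sample per genotype.

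Clca1 was at -0.01 in enterocytes, 0.06 in stem cells, 0.17 in tuft cells and 0.03 in enteroendocrine cells beside 0.43 in goblet cells in the authors' deposited table. In enterocytes 13 of 192 listed cluster 4 genes were lower and 0 higher past the fold (1.55% and 0.204% of all enterocyte genes), and in stem cells 45 of 219 were lower and 0 higher (4.39% and 0.0185%). In enteroendocrine cells 23 of 234 were lower and 15 higher (6.47% and 2.23%), and in tuft cells 98 of 232 were lower and 14 higher (22.4% and 6.59%). The enteroendocrine and tuft counts rest on few cells and are not comparable in certainty with those of goblet cells. Of the 45 goblet-defining genes lower in goblet cells, 37 were listed for enterocytes, 35 of them under 0 and 8 past the fold. In stem cells 40 were listed, all 40 under 0 and 22 past the fold. In enteroendocrine cells 19 of 40 were under 0 and 3 lower past the fold, and in tuft cells 37 of 41 and 24. All listed genes had medians of -0.11 (tuft), -0.07 (stem), -0.05 (enteroendocrine) and -0.03 (enterocytes), so most genes were under 0 in each sheet. The shares of all genes under 0 were not counted for these sheets. Nothing is read from the counts under 0.

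**Figure D4:**
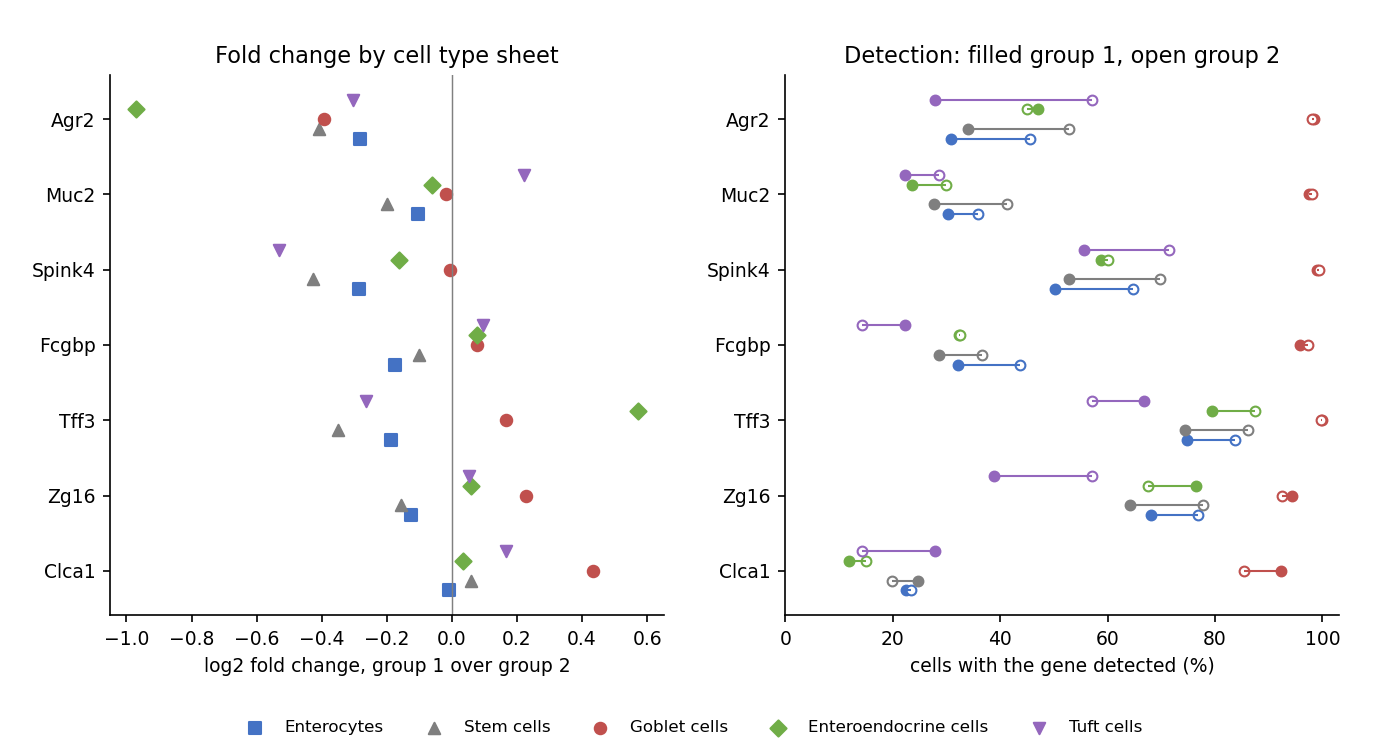
Left, log2 fold change (group 1 over group 2) of 7 goblet genes in each of the 5 cell type sheets; right, the percentage of cells in which each gene was detected, with filled points for group 1 and open points for group 2 in the same colours. Agr2 is under 0 in all 5 sheets, and Clca1 is at 0.43 in goblet cells against at most 0.17 elsewhere.

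Outside the 282 cluster 4 genes, the highest and lowest genes are given for those detected at or above the sheet's median, without predicted gene models. Transcripts of enterocytes and Paneth cells were among the highest. Over the whole sheet 0.617% of genes were higher and 2.76% lower past the fold, and 1238 of 4537 were above 0. Among genes outside cluster 4 detected in at least 25% of a group, 1.57% were higher and 5.72% lower. The counts below stand against these shares. All 9 listed enterocyte markers of 12 were above 0, 4 of them past the fold, and the authors' deposited table placed Apoa1, an apolipoprotein, at 1.29 (92.8% and 86.4%) and Fabp6, the ileal bile acid binding protein, at 0.79 (100% and 99.7%). Alpi, found in 14.9% and 7.1% of cells in the authors' deposited table, is among the 9 and may be listed only through group 1. Nothing is read from its sign. In enterocytes themselves Apoa1 was at 0.50 and Fabp6 at 0.18 in the authors' deposited table. Paneth cell markers had 8 of 11 listed, 3 higher and 1 lower past the fold, with Lyz1 at 0.91 (23.6% and 22.1%), Ang4 at 0.60, Defa17 at 0.58 and Mmp7 at -0.43 in the authors' deposited table. Stem cell markers had 3 of 6 and proliferation markers 4 of 6 listed, none past the fold in either direction, and 1 of 8 enteroendocrine (Sct) and 1 of 7 tuft cell markers (Pou2f3) was listed. Defa17 and Ang4 have near-identical family members, so their values are uncertain. Ang4 may also be listed only through group 1 (17.9% against 6.5% of cells), and nothing is read from its count. Others among the 10 highest were Fabp2 (0.52) and Anpep (0.45), both enterocyte markers, Sprr2a2 (0.42), which has near-identical copies, Crip1 (0.38) and Smim24 (0.37) in the authors' deposited table. The mitochondrial ribosomal RNA mt-Rnr1 was at 0.46, found in 81.0% of group 1 cells against 66.0%, in the authors' deposited table. It is listed for cluster 5, whose leading genes also include mt-Rnr2 and the nuclear RNA Malat1. The 68 cluster 5 genes of the goblet sheet outside cluster 4 had a median of 0.13, with 13 higher and 2 lower past the fold. The part of enterocyte, Paneth cell and mitochondrial transcripts in the goblet gene values was not tested.

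Lowest outside the cluster by the same filter were the antimicrobial lectins Reg3g (-0.60) and Reg3b (-0.41), each detected in 100% of cells of both groups, with the ribosomal protein gene Rps2 (-0.57) and the actin gene Actg1 (-0.44), in the authors' deposited table. Further down came Mrfap1 (-0.40), the translation factor Eif5a (-0.39), Sntg1 (-0.37), the G protein subunit Gnb2 (-0.36) and the ribosomal protein gene Rpl3 (-0.36) in the authors' deposited table. Tac1, the tachykinin precursor, was at -0.39, found in 14.9% and 26.5% of cells by the authors' deposited table.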

How the data were processed

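The authors deposited 5 sheets that compare 2 groups of cells within a cell type and 1 table of markers for 8 clusters. Per the file headers, these hold log2 fold changes, the fraction of cells with the gene detected (printed here as a percentage) and the authors' p-values. The p-values treat cells as replicates, so they carry no information on variation among animals and were left out. Tools listed in the submitters' processing notes are DESeq2 1.30.1, Seurat and Cell Ranger, with the build mm10. Which of them made which column, and the cell filter, doublet treatment and cell type assignment, are not given in the sources used here. The deposited library sheet planned 10000 control and 8500 nociceptor-ablated cells in 4 and 3 sub-libraries that no table used here separates.

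The rows of cluster 4 were joined to the goblet sheet by Ensembl identifier. Genes at or past a log2 fold change of 0.25 were counted, and medians taken, with pandas 2.3.3 in Python 3.11.15. The counting was tested on simulated data. Genes were placed in role lists of at least 3 listed members. Genes were named by rule: the given markers and Ramp1, the 15 strongest cluster genes, the 10 highest, 10 lowest and 10 closest to 0 among cluster 4 genes, the 10 highest and 10 lowest outside it, without predicted gene models, and up to 4 members of each list by size, the last 2 kinds at or above the median detection (17.6%). Members and lists were chosen with earlier results of these data known. Other members named beside these were chosen after their values were seen. Coordinates are from RefSeq on GRCm38.p6, matched by symbol.

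Alternatives were other folds (0.15 and 0.5), other zero points, detection floors of 25% and 50%, and other definitions of the goblet-defining genes. The zero point at widely detected genes was chosen after seeing the data.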

Additional observations from a re-analysis of the deposited data

Results flagged for a closer look

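Past the fold in opposite directions in goblet cells and in another cell type were 3 cluster 4 genes, each against enteroendocrine cells. The difference was not tested in any of them, and the sheets do not state that the order of the groups is the same. S100a6 was at 0.33 in goblet cells and -0.61 in enteroendocrine cells in the authors' deposited table. Oit1 was at -0.31 and 0.29, and the ribosomal protein gene Rps4x at -0.32 and 0.37, in the authors' deposited table. The enteroendocrine values of S100a6 rest on detection in 20.6% and 22.5% of cells in the authors' deposited table. All 3 enteroendocrine values come from a sheet with few cells.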

How the results depend on the processing

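No paired analysis was possible because each genotype had 1 sample, and no replicate could be left out for the same reason. The 45 lower and 2 higher cluster 4 genes became 118 and 6 at a fold of 0.15 (11.0% and 1.74% of all genes of the sheet) and 0 and 0 at 0.5 (0.0661% and 0.176%). They became 25 and 4 with the zero point at the median of all genes (1.34% and 1.04% of all genes), and 10 and 6 with it at widely detected genes (0.551% and 1.76%), where the median moved from -0.13 to -0.026. The lower count was 16 for genes in no other cluster, 21 of 150 with a detection gap of 25 points and 8 of 66 for the marker list; the higher count was 2 in each. Detection floors, other gene sets and the mean left the median between -0.16 and -0.12, and centring on all genes gave -0.08. Over the 266 genes of the role lists, 20 lower and 5 higher became 75 and 9 at 0.15, 0 and 1 at 0.5, 7 lower at the median of all genes, and 3 and 9 at widely detected genes. The shares over all genes at the other settings are those given above, and at 0.25 they were 2.76% lower and 0.617% higher. Centring on all genes turned the medians of secreted products (0.025), granule genes (0.012) and CGRP signalling (0.040) above 0. Centring on widely detected genes gave 0.083, 0.071 and 0.098 for these, 0.035 for mucin sugar chains, 0.018 for nucleotide sugars and 0.044 for ion transport. Depth was unknown throughout.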

Other observations

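The marker genes of the other clusters were also read in the goblet sheet, leaving out those shared with cluster 4. Their counts past the fold stand against 2.76% lower and 0.617% higher over all genes of the sheet. Among genes outside cluster 4 detected in at least 25% of a group, these shares were 5.72% and 1.57%. Genes of cluster 1, led by absorptive genes such as Fabp2 and Apoa1, had a median of 0.07 over 216 listed genes, with 17 higher and none lower past the fold, and were detected in a median of 28.5% of group 1 and 25.9% of group 2. Cluster 5 genes had the highest median, 0.13 over 68, with 13 higher and 2 lower, and cluster 3 genes a median of 0.04 over 87, with 5 higher and 4 lower. Cluster 2 genes had a median of -0.10 over 674, with none higher and 52 lower. Cluster 0 genes had a median of -0.09 over 116, with none higher and 15 lower, Reg3g and Reg3b among them. Cluster 6, led by the hormone genes Gcg and Pyy, and cluster 7 had medians of -0.07 each, over 193 and 122 genes, with 1 higher and 10 lower in cluster 6 and none higher and 4 lower in cluster 7. Of the 28 genes of the goblet sheet higher past the fold, 2 were in cluster 4. That is 0.709% of the 282 cluster 4 genes, near the 0.617% of all 4537 genes of the sheet, and nothing is read from it.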
